A study of Mus musculus with 4 samples.

Results

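The immediate early genes examined here were the AP-1 subunits Fos, Fosb, Jun, Junb and Jund, the zinc finger factors Egr1 and Egr2, the phosphatase Dusp1, the nuclear protein Ier2 and the mRNA-decay factor Zfp36. Their members were all probe sets annotated to exactly 1 of these 10 symbols, which gave 12 of the 22626 probe sets on the array apart from its controls. Jun and Egr2 had 2 probe sets each, and 0 probe sets with several symbols included a member. They were read in mouse bone marrow cells carrying the Mll-AF4stop knock-in, an allele in which a stop element keeps the Mll-AF4 leukemia fusion silent until the Cre recombinase removes it. All 4 arrays came from such mice treated with 5-fluorouracil, which kills cycling blood cells, and marrow was infected 5 days later. The first group received a Cre-GFP retrovirus (Cre-GFP 1 and 2) and the other a control GFP retrovirus (control 1 and 2). Infected cells, marked by GFP, were purified 2 days later and kept for 14 days with cytokines for lymphoid progenitors. The age and strain of the mice are not given in the sources used here, nor whether 2 arrays of a group stand for separate mice or cultures. The p-values therefore cover only the variation among these 4 arrays, which may be technical.

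Immediate early genes are switched on within minutes of a growth, cytokine or stress signal, without new protein synthesis. MAP kinases activate serum response factor with its Ets partners and CREB, which are already bound at their promoters, and the mRNAs decay again quickly. Fos and Jun proteins pair through leucine zippers to form AP-1, Egr factors bind GC-rich promoter elements, Dusp1 switches the MAP kinases off and Zfp36 speeds the decay of mRNAs with AU-rich tails. In blood cells these genes respond to cytokine and antigen receptors, and Egr1 and Egr2 take part in lymphoid and myeloid lineage decisions. Values below are log2 intensities of the deposited table. Differences are Cre-GFP minus control on that scale, with limma's standard error (SE, n = 2 arrays per group) and two-sided p, unadjusted and adjusted by Benjamini-Hochberg over all 22626 probe sets.

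The promoters of Jun, Fos and Dusp1 are printed because these genes stood lower in the Cre-GFP arrays together, and that of Junb as a close relative that did not. Sequences are from RefSeq (GRCm38.p6), 250 bases before to 50 bases after the gene start, 5′ to 3′ on the gene's strand. Capitals mark the short CRE core TGACG, the full CRE TGACGTCA bound by CREB, the AP-1 element TGANTCA, the Egr element GCGNGGGCG, TATAAA and the CArG box of serum response factor, each searched on both strands.
Jun (chr4:95052173-95052472, minus strand): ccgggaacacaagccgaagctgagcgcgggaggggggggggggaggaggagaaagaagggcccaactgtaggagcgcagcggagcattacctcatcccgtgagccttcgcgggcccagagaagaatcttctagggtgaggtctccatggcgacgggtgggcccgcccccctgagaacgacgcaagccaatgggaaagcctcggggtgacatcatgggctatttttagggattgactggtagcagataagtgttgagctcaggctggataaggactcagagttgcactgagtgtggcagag
Fos (chr12:85473640-85473939, plus strand): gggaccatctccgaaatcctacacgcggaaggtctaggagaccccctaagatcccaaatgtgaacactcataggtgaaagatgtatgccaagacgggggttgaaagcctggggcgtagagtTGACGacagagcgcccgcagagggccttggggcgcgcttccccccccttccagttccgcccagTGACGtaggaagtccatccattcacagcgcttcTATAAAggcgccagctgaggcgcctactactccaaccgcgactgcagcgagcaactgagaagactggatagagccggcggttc
Dusp1 (chr17:26508423-26508722, minus strand): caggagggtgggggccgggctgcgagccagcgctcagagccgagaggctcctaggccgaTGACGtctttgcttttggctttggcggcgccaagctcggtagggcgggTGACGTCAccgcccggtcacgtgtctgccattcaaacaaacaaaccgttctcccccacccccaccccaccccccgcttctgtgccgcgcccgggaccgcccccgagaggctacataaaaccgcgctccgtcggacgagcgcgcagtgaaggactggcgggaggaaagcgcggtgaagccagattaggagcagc
Junb (chr8:84978699-84978998, minus strand): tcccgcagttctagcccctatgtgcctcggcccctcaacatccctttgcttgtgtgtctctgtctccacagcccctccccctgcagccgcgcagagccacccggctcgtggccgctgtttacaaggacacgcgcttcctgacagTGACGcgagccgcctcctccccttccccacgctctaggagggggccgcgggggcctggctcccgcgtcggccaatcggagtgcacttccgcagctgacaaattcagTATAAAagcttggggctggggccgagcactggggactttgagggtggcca

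Of the 10 genes, 8 had a promoter in the RefSeq table, while Egr1 and Ier2 had none and were not searched. Egr2 had 5 promoter windows and each of the others had 1, and a gene counted if any window matched. TGACGTCA was found in 1 of these 8 (Dusp1), beside 2.03% of the 27025 genes in the table, and it holds TGACG on both strands. TGACG was found in 5 of the 8 (Fos, Fosb, Junb, Egr2 and Dusp1), beside 23.0% of genes. The CArG box was found in Egr2 and Zfp36, beside 1.81% of genes, and TATAAA in Fos and Junb, beside 15.7%. GCGNGGGCG was found in Fosb and Zfp36 (6.27% of genes), CCGGAA, an Ets core, in Egr2 and Zfp36 (16.7%), and TGANTCA in 0 of the 8 (8.97%). Fos and Junb both held TGACG and TATAAA, but TATAAA began at position −33 in Fos and at position 1, the gene start itself, in Junb. Any part of the motifs in the members' values was not tested. The windows of Jun and Jund held none of the motifs searched. A match is a match of letters in this window and shows no binding.

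Egr1, Jun, Fos and Dusp1 read below both control arrays in each Cre-GFP array, by 2.63-fold for Egr1, 2.20- and 2.69-fold for the 2 probe sets of Jun, 1.86-fold for Fos and 1.65-fold for Dusp1. Jund and Zfp36 did so too, by 1.17- and 1.20-fold. Fosb, Junb, Ier2 and 1 of the 2 Egr2 probe sets had overlapping groups. In limma 0 of the 12 probe sets passed an adjusted p of 0.05, as did 0 (0%) of all probe sets, while 1088 of all (4.81%) had an unadjusted p under 0.05. An unadjusted p under 0.05 with a lower level in Cre-GFP was found for 5 of the 12, beside 2.4% of all probe sets, and counted by gene for 4 of 10, beside 2.41% of genes. Groups that did not overlap, with Cre-GFP lower, were found for 7 of the 12, beside 14.7% of all probe sets. The reverse was found for 1 of the 12, Egr2 1427682_a_at, beside 15.2%. By direction alone, 9 of the 12 were lower, beside 49.8% of all probe sets. The median difference was −0.25 over the 12 probe sets and 0.00 over all probe sets. In mixed cells such as these, fewer cells of a type and less RNA per cell cannot be told apart.

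**Figure D1:**
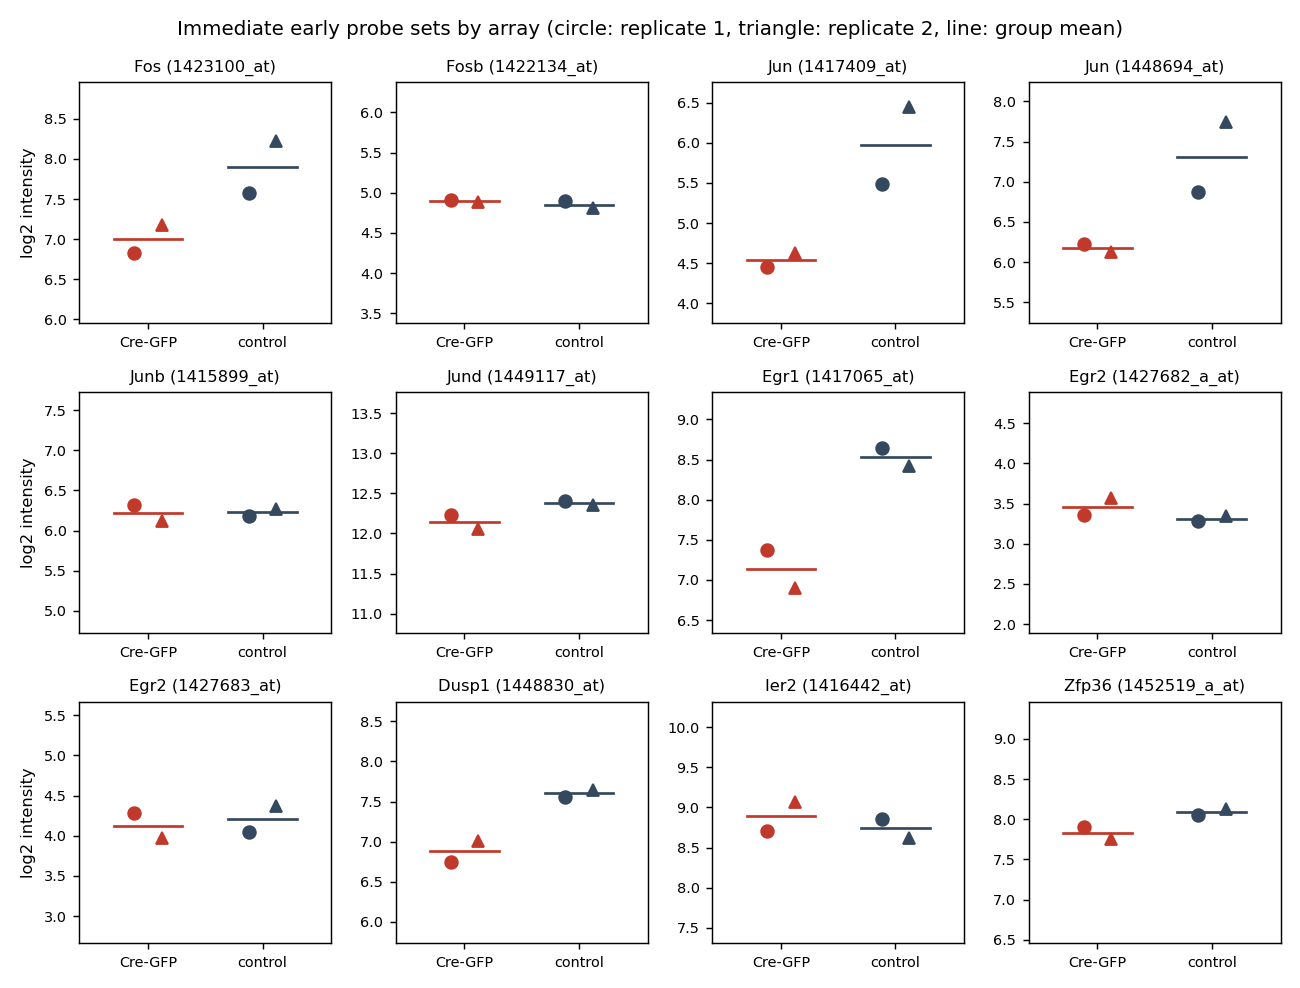
Log2 intensity (y axis, a span of equal size in every panel) of the 12 probe sets in the 2 Cre-GFP arrays (left, red) and the 2 control arrays (right, grey); circles are replicate 1, triangles replicate 2 and lines group means. The red points of Egr1, Fos, Dusp1 and both Jun probe sets lie below all grey points, and the Junb, Fosb and Ier2 points overlap.

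Egr1, a zinc finger activator induced by MAP kinase signals and also active in resting blood stem cells, read 7.38 and 6.91 in Cre-GFP 1 and 2, against 8.65 and 8.42 in control 1 and 2. The gap between the groups was wider than the distance between arrays of either group. The difference was −1.39 ± 0.22 (95% confidence interval −1.92 to −0.87, limma unadjusted p = 0.000674, adjusted p = 0.401). By unadjusted p it ranked 37 of 22626 probe sets, ahead of every other member. Leaving out single arrays gave differences from −1.63 to −1.16.

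Jun, the AP-1 subunit that can pair with itself or with Fos, was read by 2 probe sets. Probe set 1448694_at read 6.22 and 6.12 in Cre-GFP, against 6.87 and 7.74 in control. Probe set 1417409_at read 4.46 and 4.62 in Cre-GFP, against 5.48 and 6.45 in control. On both, the Cre-GFP arrays lay close together and control 2 stood 0.87 and 0.97 above control 1. The differences were −1.13 ± 0.28 (limma unadjusted p = 0.00735, adjusted p = 0.745) and −1.43 ± 0.30 (unadjusted p = 0.00333, adjusted p = 0.644). Values of 1417409_at in both Cre-GFP arrays lay under the 20th percentile of their array, where RMA compresses differences. Without control 2 the differences were −0.70 and −0.94. Without control 1 they were −1.57 and −1.91, with control 2, the higher of the control arrays on both probe sets, as the only control array kept.

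Fos, the AP-1 subunit that binds DNA only with a Jun partner, read 6.83 and 7.18 in Cre-GFP, against 7.57 and 8.23 in control. Both groups had their higher value in replicate 2, and the groups did not overlap. The difference was −0.89 ± 0.26 (limma unadjusted p = 0.0141, adjusted p = 0.831). It was −0.57 without control 2 (unadjusted p = 0.0556) and −0.72 without Cre-GFP 1 (unadjusted p = 0.0900), the settings in which it missed an unadjusted 0.05.

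Dusp1, the dual specificity phosphatase that removes both phosphates from p38, JNK and ERK, read 6.75 and 7.01 in Cre-GFP, against 7.56 and 7.64 in control. The 2 control arrays lay within 0.09 of each other and above both Cre-GFP arrays. The difference was −0.72 ± 0.16 (95% confidence interval −1.12 to −0.33, limma unadjusted p = 0.00427, adjusted p = 0.682), and leaving out single arrays gave −0.85 to −0.59.

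**Figure D2:**
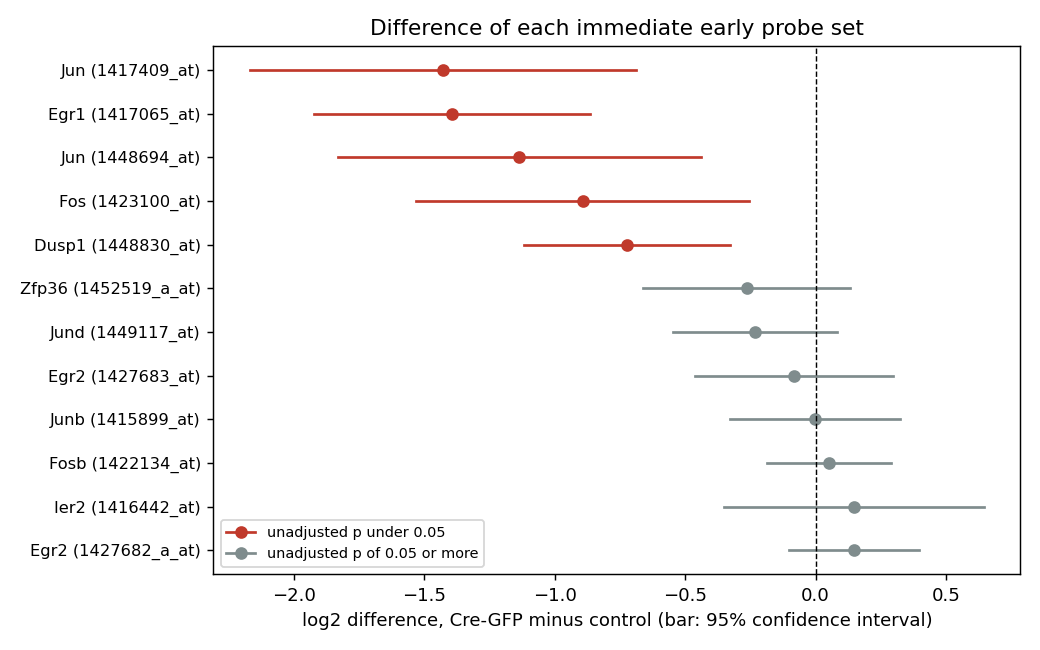
Log2 difference, Cre-GFP minus control (x axis), of each of the 12 probe sets, with bars for the 95% confidence interval of limma (2 arrays per group). The 5 red probe sets, at −1.43 to −0.72, have an unadjusted p under 0.05, and the intervals of the 7 grey ones include 0.

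The Jun relatives stood apart from Jun. Jund, the AP-1 subunit that most resting cells hold at a steady level, read 12.23 and 12.06 in Cre-GFP, against 12.40 and 12.35 in control. It was lower in both Cre-GFP arrays by a small margin, with a difference of −0.23 ± 0.13 (95% confidence interval −0.54 to 0.08, limma unadjusted p = 0.120), and −0.15 without Cre-GFP 2. Junb, which restrains Jun on some promoters and limits myeloid expansion in mice, read 6.32 and 6.12 in Cre-GFP, against 6.18 and 6.27 in control. Its groups overlapped, with a difference of −0.00 ± 0.13 and a 95% confidence interval of −0.33 to 0.32. The sign turned with the array left out, with values from −0.103 to 0.097.

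Fosb, the Fos relative, read 4.92 and 4.89 in Cre-GFP, against 4.89 and 4.81 in control, a difference of 0.05 ± 0.10 (95% confidence interval −0.19 to 0.29), or 0.01 without control 2 and 0.09 without control 1. The 4 values lay just above the 20th percentile of each array, which was 4.69 to 4.76, so a real difference would be understated there. Egr2, a relative of Egr1 with roles in lymphocyte tolerance and in myelination, was dimmer. Its probe set 1427683_at read 4.28 and 3.97 in Cre-GFP, against 4.05 and 4.37 in control, and 1427682_a_at read 3.36 and 3.57, against 3.29 and 3.34. All 8 values lay under the 20th percentile. The differences were −0.08 ± 0.15 and 0.15 ± 0.10, and the 2 probe sets had opposite signs. At this brightness a fall of Egr2 could not be read, and a small rise would be understated.

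Ier2, a nuclear protein of immediate early responses, read 8.71 and 9.06 in Cre-GFP, against 8.86 and 8.62 in control. The groups overlapped, with a difference of 0.15 ± 0.20 (95% confidence interval −0.35 to 0.64), which turned to −0.03 without Cre-GFP 2. Zfp36 read 7.91 and 7.75 in Cre-GFP, against 8.06 and 8.13 in control. The groups did not overlap, and the difference was −0.26 ± 0.16 (95% confidence interval −0.66 to 0.13, limma unadjusted p = 0.154).

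**Figure D3:**
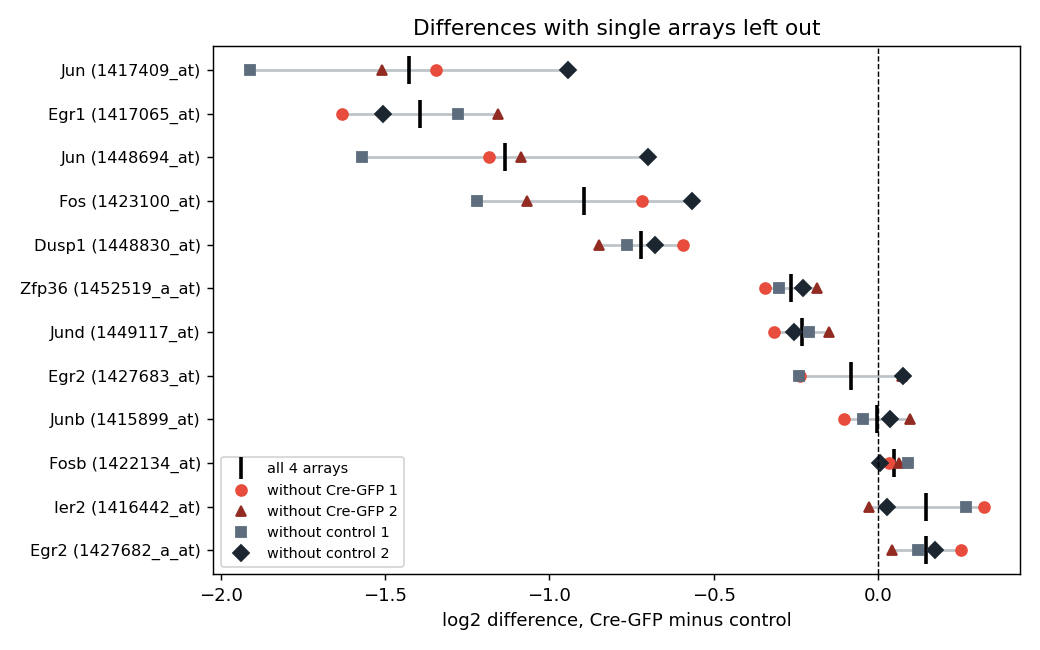
Log2 difference, Cre-GFP minus control (x axis), of each probe set with all 4 arrays (black bar) and with each array left out in turn (symbols). Jun and Fos move most, towards 0 without control 2 and away from it without control 1, and the symbols of Junb, Ier2 and Egr2 1427683_at fall on both sides of 0.

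The lower members also differed among themselves in which arrays were high. Patterns were compared by the root mean square difference of the 4 log2 values, each gene centred on its own mean, which is a description over 4 arrays. Fos lay at 0.21 from Jun and 0.22 from Dusp1, and in these the highest array was control 2. Egr1, with control 1 as its highest array, lay at 0.43 from Jun, 0.44 from Dusp1 and 0.50 from Fos. Jund and Zfp36, both nearly flat, were the closest members at 0.04. Among genes at or above the median brightness, the nearest to Egr1 were Csf1 (0.20), Pik3cg (0.22), Gbp2b (0.23), Rapgef3 (0.24) and Cd52 (0.25). The median gene lay at 0.74 from Egr1, and no such median was taken for Jun or Fos. Csf1 read 7.70 and 7.59 in Cre-GFP, against 8.87 and 9.06 in control. The nearest to Jun were the probe set annotated to Mir142 (0.10), Nkd2 (0.10), Zmat3 (0.14), Pgf (0.14) and Ms4a6b (0.15). The nearest to Fos were Pim1 (0.06), Ptgr1 (0.12), Gbp7 (0.13), Nkd2 (0.13) and Agfg1 (0.13).

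Other immediate early genes were counted with 1 probe set per gene. Of 31 measured, 15 were lower and 16 higher in Cre-GFP (49.9% of all genes were lower), 3 were lower and 0 higher at an unadjusted p under 0.05 (beside 2.41% and 2.2% of all 12393 genes), and 0 passed over all probe sets. The median difference was 0.01, and −0.12 to −0.02 when single arrays were left out. Groups did not overlap with Cre-GFP lower for 10 of the 31, beside 14.9% of genes. Btg1, an antiproliferative cofactor high in resting lymphocytes, read 10.08 and 10.27 in Cre-GFP, against 11.03 and 11.10 in control (−0.89 ± 0.16, limma unadjusted p = 0.00146). Pim1, a survival kinase downstream of cytokine receptors, read 11.13 and 11.56 in Cre-GFP, against 11.79 and 12.47 in control (−0.79 ± 0.27, and −0.45 without control 2). Tob1, a relative of Btg1, differed by −0.53 ± 0.22, and by −0.35 without Cre-GFP 1 and −0.30 without control 1. Plk2, a Polo-like kinase, differed by −0.33 ± 0.15, and by −0.19 without Cre-GFP 2.

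Several of the best known immediate early genes, named after their values were seen, had overlapping or close groups. Nr4a1, an orphan nuclear receptor induced by antigen receptor signals, read 8.59 and 8.33 in Cre-GFP, against 8.34 and 8.56 in control (0.01 ± 0.19). Myc, the growth regulator, read 10.99 and 10.85 in Cre-GFP, against 10.96 and 10.12 in control (0.38 ± 0.29, and −0.04 without control 2). Ier5, a relative of Ier2, read 7.23 and 7.40 in Cre-GFP, against 7.45 and 7.68 in control (−0.25 ± 0.17, and −0.14 without control 2).

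Other AP-1 proteins and the Egr relatives and partners showed smaller differences than Egr1, Jun, Fos and Dusp1. Of 13 other AP-1 family proteins, 5 were lower and 8 higher (49.9% of all genes were lower). At an unadjusted p under 0.05, 0 were found in either direction, beside 4.62% of genes. The median was 0.04 (−0.00 to 0.06 with single arrays left out). Atf7 differed by 0.32 ± 0.28 (−0.09 without control 2), Mafg by 0.15 ± 0.14, Batf, an AP-1 partner of lymphocytes, by 0.16 ± 0.16 (0.08 to 0.25 with single arrays left out) and Mafk by −0.16 ± 0.16 (−0.23 to −0.10). All 5 Egr relatives and partners were lower, with differences of −0.14 to −0.05, beside 49.9% of all genes lower. An unadjusted p under 0.05 was found for 0 of the 5, beside 4.62% of genes. With single arrays left out 4 to 5 were lower. Among these were Nab1 and Nab2, corepressors that bind Egr proteins, at −0.07 ± 0.16 and −0.09 ± 0.14, Egr4 at −0.14 ± 0.14 and Wt1 at −0.11 ± 0.10. Leaving out single arrays gave −0.17 to 0.03 for Nab1, −0.24 to 0.06 for Nab2, −0.21 to −0.06 for Egr4 and −0.19 to −0.03 for Wt1.

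Of 11 other dual specificity phosphatases, 7 were lower and 4 higher (49.9% of all genes were lower). An unadjusted p under 0.05 was found for 0 of the 11, beside 4.62% of genes. The median was −0.12, and −0.09 to 0.05 with any 1 array left out. Dusp6, the ERK-specific phosphatase, read 5.29 and 7.22 in Cre-GFP, against 6.71 and 7.09 in control. Cre-GFP 1 alone was low, and the difference of −0.65 ± 0.58 became 0.32 without it. Dusp3 differed by 0.40 ± 0.18 (0.25 without control 2). Dusp10, a phosphatase of JNK and p38, differed by −0.25 ± 0.16, and by −0.08 without control 1 and −0.42 without control 2. Dusp14 differed by 0.19 ± 0.13, and by 0.33 without control 1 and 0.05 without control 2.

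The relatives of Zfp36 differed in opposite directions. Zfp36l1, an mRNA-decay factor needed with Zfp36l2 for early lymphocyte development, read 9.57 and 9.61 in Cre-GFP, against 10.34 and 10.36 in control (−0.76 ± 0.16, limma unadjusted p = 0.00299, adjusted p = 0.629). Leaving out any 1 array gave −0.78 to −0.73. Zfp36l2 read 10.79 and 10.33 in Cre-GFP, against 10.03 and 9.44 in control (0.83 ± 0.27, unadjusted p = 0.0210), and differed by 0.53 without control 2. Of the 9 relatives and targets measured, 4 were lower and 5 higher, and 4 to 6 were lower with single arrays left out. With all 4 arrays, 1 in each direction had an unadjusted p under 0.05, beside 2.41% (lower) and 2.2% (higher) of genes. The target Cxcl2, a chemokine, read 4.11 and 3.84 in Cre-GFP, against 4.16 and 4.80 in control, and 3 of these 4 values lay under the 20th percentile. Its difference of −0.50 ± 0.22 was −0.18 without control 2 and −0.82 without control 1. Ccl3, another chemokine, differed by 0.15 ± 0.13, and by −0.00 to 0.30 with single arrays left out.

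Genes upstream of the members were read next. Of 10 serum response and CREB transcription factors, 8 were lower and 2 higher (49.9% of all genes were lower). Their median was −0.04 (−0.19 to −0.05 with single arrays left out). Crtc2, a CREB coactivator, differed by −0.42 ± 0.14 (limma unadjusted p = 0.0239), and by −0.25 without Cre-GFP 1. Crem differed by −0.19 ± 0.12, Creb1 by −0.23 ± 0.14 (0.08 with the mean of its probe sets) and Mrtfa by −0.23 ± 0.18 (−0.38 to −0.08 with single arrays left out). Of the 23 genes listed for the MAP kinase cascade 13 were measured, 5 lower and 8 higher, with a median of 0.04 (0.02 to 0.07). Mapkapk2, the kinase downstream of p38 that acts on Zfp36, differed by 0.41 ± 0.15 (unadjusted p = 0.0389), Nras by 0.23 ± 0.19, Rps6ka3 by −0.25 ± 0.22 and Map2k2 by 0.17 ± 0.21. Leaving out single arrays gave 0.10 to 0.36 for Nras, −0.48 to −0.02 for Rps6ka3 and −0.06 to 0.41 for Map2k2. Of 10 ERK feedback genes, 5 were lower and 5 higher, with a median of −0.01 (−0.12 to 0.05). An unadjusted p under 0.05 was found for 0 of the 10, beside 4.62% of genes. Spry4 differed by 0.20 ± 0.10, Spred1 by −0.34 ± 0.24 (−0.58 to −0.09 with single arrays left out) and Etv4 by −0.10 ± 0.14 (−0.17 to −0.04). These mRNA levels say nothing of kinase activity, which was not measured.

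**Figure D4:**
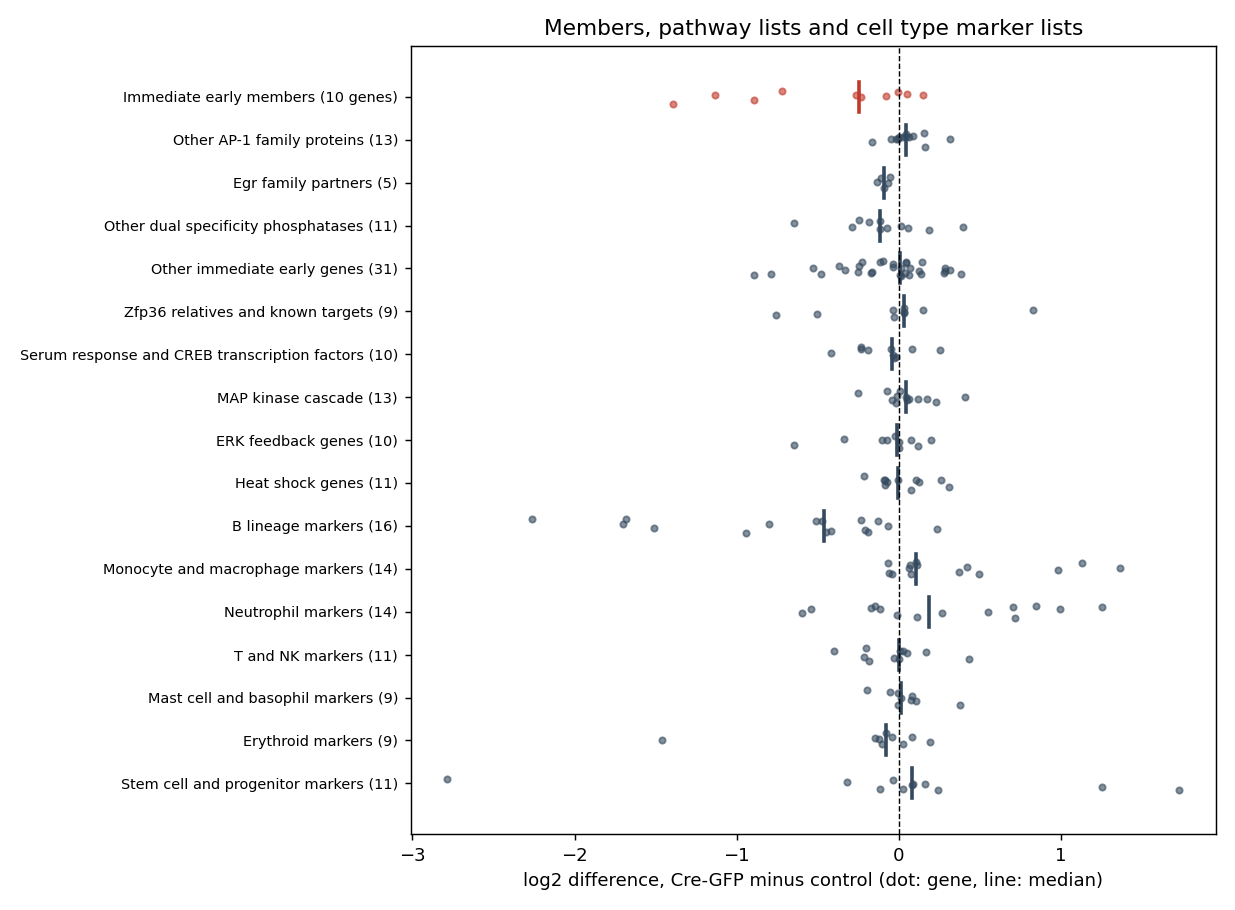
Log2 difference, Cre-GFP minus control (x axis), of each gene (dots) with the median (line) for the 10 members (red, 1 probe set per gene), 9 pathway lists and 7 cell type marker lists, with numbers of genes in brackets. The members spread from −1.39 to 0.15 with a median of −0.25, the pathway medians lie between −0.12 and 0.04, and the B lineage markers have a median of −0.46.

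Markers of other cell types also differed between the groups, and 0 markers of any list passed over all probe sets. B lineage markers were lower in Cre-GFP for 15 of 16 genes, beside 49.9% of all genes. An unadjusted p under 0.05 with a lower level was found for 6 of the 16, beside 2.41% of genes, and for 3 without Cre-GFP 2, 4 without control 2 and 10 without control 1. The median of −0.46 became −0.32 once Cre-GFP 2 was left out and −0.74 once Cre-GFP 1 was. Their summed linear intensity was 39686 and 39299 in Cre-GFP, against 47817 and 53691 in control, with 0 of the 16 under the 20th percentile on all arrays. Control 2 was the highest array of this sum. It was also the highest for Jun, Fos and Dusp1, while Egr1 was highest in control 1. Spib, a B and dendritic cell Ets factor, differed by −2.26 ± 0.57 (−1.41 without Cre-GFP 2) and Cd79b, a B cell receptor chain, by −1.70 ± 0.43.

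Monocyte and macrophage markers were higher for 11 of 14 genes, 3 of them at an unadjusted p under 0.05 (beside 2.2% of genes) and 0 of them without Cre-GFP 1 or without control 1. Their median was 0.11, and 0.08 to 0.24 with single arrays left out. Their summed intensity was 6739 and 4880 in Cre-GFP, against 2360 and 4401 in control. Itgam, Fcgr1 and C1qb of this list lay under the 20th percentile on all arrays, while Csf1r differed by 1.13 ± 0.34 and Apoe by 0.37 ± 0.13. Neutrophil markers were mixed, with 8 of 14 genes higher and 6 lower. At an unadjusted p under 0.05, 3 were higher and 1 lower, beside 2.2% and 2.41% of genes. Mpo and Ctsg, granule enzymes, were higher, at 1.25 ± 0.15 and 0.99 ± 0.16, and Mmp9, named after its values were seen, was lower at −0.54 ± 0.17 (−0.32 without Cre-GFP 2). The median of 0.19 turned to −0.20 without control 1, and was 0.34 without control 2. The summed intensity was 4084 and 4764 in Cre-GFP, against 1864 and 5618 in control, so the groups overlapped and control 2 was the highest array. The part of these markers in the lower Egr1, Jun, Fos and Dusp1 values was not tested.

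Other marker lists had medians near 0: −0.00 for 11 T and NK genes (Klrd1 −0.40 ± 0.16, Ncr1 −0.22 ± 0.11), 0.01 for 9 mast cell and basophil genes (Tpsb2 0.38 ± 0.13, Mcpt8 −0.20 ± 0.16), −0.08 for 9 erythroid genes (Car2 −1.46 ± 0.18, Alas2 0.19 ± 0.11) and 0.08 for 11 stem cell and progenitor genes. With single arrays left out these medians were −0.09 to 0.03, −0.03 to 0.11, −0.08 to 0.00 and 0.01 to 0.10. Klrd1 was −0.61 without control 1 and −0.19 without control 2, and Mcpt8 −0.42 and 0.02. The stem cell and progenitor genes were split, with 2 higher and 2 lower at an unadjusted p under 0.05, beside 2.2% and 2.41% of genes. Meis1 differed by 1.73 ± 0.14 and Hoxa9, a homeobox factor of progenitors and a known MLL fusion target, by 1.26 ± 0.17. Mycn, a Myc relative named after its values were seen, had the lowest difference of the list at −2.78 ± 0.45. The summed intensity of the list, in which the brightest genes weigh most, was 9276 and 8384 in Cre-GFP, against 16350 and 14684 in control. Its mean log2 value was 7.48 and 7.38 in Cre-GFP, against 7.39 and 7.41 in control, with 7 genes higher and 4 lower. Heat shock genes, which also respond to handling, were lower for 6 and higher for 5 of 11, with a median of −0.01 (−0.12 to 0.03). Hspa1b differed by −0.22 ± 0.12 (−0.29 to −0.14), Hsph1 by 0.26 ± 0.17 (0.13 to 0.39), Hspd1 by 0.31 ± 0.25 (−0.01 to 0.63) and Hspa1a by 0.13 ± 0.10 (0.03 to 0.22), with ranges over single arrays left out in brackets. As a reading of RNA quality, the log2 ratio of 3′ to 5′ control probe sets was 3.99 and 4.32 in Cre-GFP, against 4.32 and 4.24 in control, for Gapdh, and 3.36 and 3.04, against 3.60 and 2.81, for Actb, and neither separated the groups. That of Tfrc was 2.53 and 2.97 in Cre-GFP, against 3.10 and 3.28 in control, lower in both Cre-GFP arrays. Its part in the members' values was not tested.

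The array medians were 6.45 and 6.41 in Cre-GFP, against 6.43 and 6.43 in control, on the log2 scale. The series' text gives the control virus a name that includes Cre, but the labels of the samples describe a GFP control, and groups follow those labels. Had the control virus carried Cre, both groups would hold an activated construct. The phage P1 Cre probe sets on the array read 13.87 to 14.28 on all 4 arrays. Cre transcript is a standard hybridization spike on these arrays, so they do not check the labels. The Cre protein and the fusion cannot be told apart in this design.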

How the data were processed

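RNA (20 ng per sample) was amplified with a NuGen Ovation kit and hybridized to Affymetrix mouse arrays, per the labels' protocols. The authors deposited a single table of RMA intensity values per probe set, not on a log scale, per the submitters' processing notes and the values themselves. No version of RMA is stated there. RMA normally equalizes the arrays, which hides any shift common to most genes. Each intensity was converted to log2 without further normalization, and 64 control probe sets were left out of tests. In the platform annotation 20380 probe sets carried 1 symbol, 691 carried more and 1555 were unnamed. The 2 groups of 2 arrays were compared by limma 3.58.1 (R 4.3.3; two-sided moderated test with eBayes and its trend option), adjusted by Benjamini-Hochberg over 22626 probe sets at 0.05, and the procedure was tested on simulated data. A two-sided exact permutation test of 2 arrays against 2 cannot go below p = 0.33. Lists used the probe set of highest mean per gene (12393 genes). Named genes were all members, up to 4 genes per pathway list and 2 per marker list by smallest p, and the 5 genes nearest in pattern to Egr1, Jun and Fos. Nr4a1, Myc, Ier5, Mmp9 and Mycn were named beyond that rule, after their values were seen. Members and lists were chosen with earlier results of these data known. Scan batches were not tested, and precision is limited by having 4 arrays. Alternatives left out single arrays, added the replicate number as a block, dropped the trend, renormalized or centred the arrays, treated dim values otherwise, added 32 before log2, or chose probe sets otherwise.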

Additional observations from a re-analysis of the deposited data

How the results depend on the processing

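Over the alternatives that kept all 4 arrays, 0 of the 12 probe sets passed over all probe sets. With single arrays left out, the number lower in every Cre-GFP array kept than in any control array kept was 7 to 9. The same share over all probe sets was then 29.1% to 35.8%, against 14.7% with all 4 arrays. In those settings the median difference of the 12 probe sets was −0.329 to −0.166. The median was −0.493 without the dimmest 40% of probe sets, which left out Fosb, Jun 1417409_at and both Egr2 probe sets. It was −0.477 without probe sets ending in _a_at, _s_at or _x_at, which left out Egr2 1427682_a_at and Zfp36. Egr1, Jun, Fos and Dusp1 were lower in every setting in which they were measured. With single arrays left out, signs turned for Junb (−0.103 to 0.097; 0.038 without control 2), Ier2 (−0.027 to 0.32), Egr2 1427683_at (−0.24 to 0.076; 0.074 without Cre-GFP 2), Dusp6 (−1.61 to 0.32), Atf7 (−0.086 to 0.72), Nab1 (−0.17 to 0.031), Nab2 (−0.24 to 0.058), Nr4a1 (−0.12 to 0.14; −0.095 without control 1), Myc (−0.040 to 0.80), Ccl3 (−0.0028 to 0.30), Map2k2 (−0.065 to 0.41), Hspd1 (−0.014 to 0.63) and Mcpt8 (−0.42 to 0.021). They also turned for Egr2 1427683_at (0.033) and Creb1 (0.082) with the mean of probe sets, and for Egr2 1427682_a_at and Hspa1a (−0.0026 each) with dim values raised. The cause was not tested. The labels number the replicates 1 and 2 in both groups without saying that a number pairs arrays. The differences of replicate 1 from 2 in the groups correlated at 0.36 over probe sets. With the number as a replicate block, 0 of the 12 passed and the median was −0.25. In that setting 5 of the 12 were lower at an unadjusted p under 0.05, beside 3.73% of all probe sets.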
